A study of Mus musculus with 36 samples.

Results

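The motile cilia structural genes were taken as all genes whose symbol begins with Dnah, Dnai, Cfap, Rsph or Drc followed by a digit. The symbol tables held 62 such genes, and 56 of them were listed among the 24574 genes that had an entry in all 36 libraries. These 56 were 12 Dnah, 2 Dnai, 32 Cfap, 7 Rsph and 3 Drc genes. The other 6 (Cfap47, Cfap99, Dnah3, Dnah12, Dnah14 and Rsph10b) were not analysed here. Their levels were compared between the main olfactory epithelium (MOE), the vomeronasal organ (VNO) and the olfactory bulb (OB), and between sexes and housings within each tissue.

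All mice were C57BL/6, weaned at 3 weeks, kept 4 to a cage and taken at 6 months. Females and males were housed either only with their own sex (SF and SM) or with both sexes in the cage (CF and CM). Each tissue had 4 groups of 3 libraries, so 12 libraries per tissue, and no genotype or drug was involved. By the study's description MOE, VNO and OB were taken from each mouse, so libraries of different tissues can share mice. The tissue tests took the 36 libraries as independent, apart from a replicate block given at the end. Every library was made from RNA pooled over several mice, and the sources used here differ on how many, so a p-value below measures the spread between pools. Libraries were depleted of ribosomal RNA, and levels are FPKM, fragment counts scaled by transcript length and by library size. Comparisons between libraries and tissues still depend on this scaling, and values under other scalings and a length correction are given below.

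A motile cilium beats because dynein arms on its outer microtubule doublets slide neighbouring doublets against each other. The Dnah genes encode the dynein heavy chains, the motor subunits, and the Dnai genes encode intermediate chains that hold a motor complex together. Rsph genes encode the radial spokes, which relay signals from the central microtubules to the motors, and Drc genes encode the nexin-dynein regulatory complex, which links neighbouring doublets. The Cfap name is given to a mixed group of cilia and flagella associated proteins, with members inside the microtubules, in the central apparatus, on the dynein arms or in the cytoplasm where dynein arms are preassembled. The nasal cavity holds multiciliated respiratory cells with motile cilia, whereas the long cilia of mouse olfactory sensory neurons carry odorant receptors and are generally described as immotile, and vomeronasal sensory neurons end in microvilli. The bulb is brain tissue that adjoins the ciliated lining of the ventricular system.

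RFX factors, which drive many cilia genes, bind a sequence called the X-box, and FOXJ1, the main factor of motile cilia, binds a forkhead sequence. The promoter table of RefSeq (GRCm38.p6) held 51 windows for 47 of the 56 genes, and the 250 bases before each start were searched on both strands. The X-box core GTTGCC was present for 16 of 47 genes (34.0%) and for 11.8% of all 27025 genes in the table. A paired X-box, GTTNCC and GGNAAC with 0 to 3 bases between them, occurred for 2 of 47 genes (4.26%) and for 0.788% of all genes; it can overlap the core. The forkhead sequence TGTTTAC was found for 3 of 47 genes (6.38%) and for 3.54% of all genes. The median GC content of the windows was 54.8% for the motile cilia genes and 52.4% for all windows. Of the genes with a window that were tested between tissues, the core was present for 9 of 29 that were higher in MOE than VNO, for 3 of 8 that were lower and for 4 of 9 that were not called. A match is a description of these letters and not of a bound site. The windows below are those of both genes with a paired X-box of the searched form (Cfap298, which has 2 of them, and Cfap20dc), of a regulatory complex gene higher in MOE (Drc1) and of 2 genes higher in VNO (Cfap300 and Dnah10), with the motif letters in capitals.
Cfap298, GRCm38.p6 chr16:90934850-90935099, minus strand: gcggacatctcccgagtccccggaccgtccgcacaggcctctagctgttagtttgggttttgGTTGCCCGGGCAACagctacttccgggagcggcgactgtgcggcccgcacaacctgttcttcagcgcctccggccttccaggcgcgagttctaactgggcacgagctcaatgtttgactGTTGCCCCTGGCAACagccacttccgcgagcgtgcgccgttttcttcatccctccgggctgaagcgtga
Cfap20dc, GRCm38.p6 chr14:8666291-8666540, minus strand: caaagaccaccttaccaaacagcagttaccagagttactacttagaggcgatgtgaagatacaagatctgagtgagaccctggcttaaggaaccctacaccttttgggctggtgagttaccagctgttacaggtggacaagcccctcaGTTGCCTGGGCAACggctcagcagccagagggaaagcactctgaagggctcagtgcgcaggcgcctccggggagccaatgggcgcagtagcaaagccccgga
Drc1, GRCm38.p6 chr5:30281143-30281392, plus strand: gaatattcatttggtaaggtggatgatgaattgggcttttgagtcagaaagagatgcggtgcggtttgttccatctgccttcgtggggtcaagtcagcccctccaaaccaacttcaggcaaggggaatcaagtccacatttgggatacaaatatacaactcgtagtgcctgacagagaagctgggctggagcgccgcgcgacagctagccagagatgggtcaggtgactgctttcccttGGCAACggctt
Cfap300, GRCm38.p6 chr9:8042876-8043125, minus strand: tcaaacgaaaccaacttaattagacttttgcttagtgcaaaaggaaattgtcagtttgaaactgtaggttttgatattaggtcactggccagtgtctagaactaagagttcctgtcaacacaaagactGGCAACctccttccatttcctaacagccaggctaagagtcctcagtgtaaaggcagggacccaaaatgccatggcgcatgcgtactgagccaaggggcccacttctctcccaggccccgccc
Dnah10, GRCm38.p6 chr5:124724835-124725084, plus strand: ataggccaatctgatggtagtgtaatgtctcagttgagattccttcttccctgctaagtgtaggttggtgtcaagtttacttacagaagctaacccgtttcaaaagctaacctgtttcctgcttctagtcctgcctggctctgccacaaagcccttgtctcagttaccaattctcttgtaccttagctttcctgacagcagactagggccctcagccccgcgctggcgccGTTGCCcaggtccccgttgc

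The tissues were first checked by genes outside the set. The summed FPKM of 7 markers of olfactory sensory neurons, Omp and Cnga2 among them, was 1202 to 2043 in MOE, against 98.3 to 151 in VNO and 40.5 to 61.2 in OB, and that of 4 vomeronasal markers was highest in VNO (90.8 to 116). Bulb neuron markers summed to 305 to 405 in OB and to at most 4.03 elsewhere. An effective number of fragments, estimated from the confidence limits that came with each FPKM, was 3016520 to 6779890 over all libraries. It lies well below the sequencing depth that the labels and the study's methods give, so it stands for the precision of the deposited values and is not a count of reads. Of it the motile cilia genes took 12083 to 27617 per library in MOE, against 13868 to 26855 in VNO and 2236 to 4338 in OB. MOE-CM3, a male pool from mixed cages, stood apart from the other 11 MOE libraries, with 75.3% of all genes at a mean of at least 0.5 FPKM lower in it than in each of the others.

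The summed level of the motile cilia genes was highest in MOE, intermediate in VNO and lowest in OB. It was 465 FPKM ± 64.4 (SD, n = 12) in MOE, with a lowest library of 282, a median of 483 and a highest of 521. In VNO the sum was 261 FPKM ± 27.1 (n = 12), from 201 through a median of 262 to 301. In OB it was 85.4 FPKM ± 8.26 (n = 12), from 70.5 through 84.1 to 95.4. The lowest MOE library was MOE-CM3 at 282, which lay within the VNO range, and the other 11 MOE libraries lay at 425 to 521, above every VNO library, while no OB library reached the lowest VNO library. The mean sum in MOE was 1.78 times that in VNO, and the mean sum in VNO was 3.05 times that in OB. These ratios rested in part on a few abundant genes. Leaving out Cfap20, Cfap36, Cfap69, Cfap206, Cfap298, Cfap300, Drc3 and Rsph9 kept 48 genes. The genes left out were chosen with these levels known. They include those ranked 1 to 7 in MOE and 1 to 3 in OB, while Dnah5, ranked 5 in VNO, was kept. MOE then had a mean sum of 200 FPKM ± 28.4 (SD, n = 12), VNO one of 134 ± 17.2 and OB one of 23.5 ± 1.99. By these values MOE and VNO were closer in proportion, and VNO and OB further apart, but both shifts follow in part from which genes were left out. Neither sum was tested. In whole tissue, fewer cells of a type and less RNA per cell cannot be told apart.

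**Figure D1:**
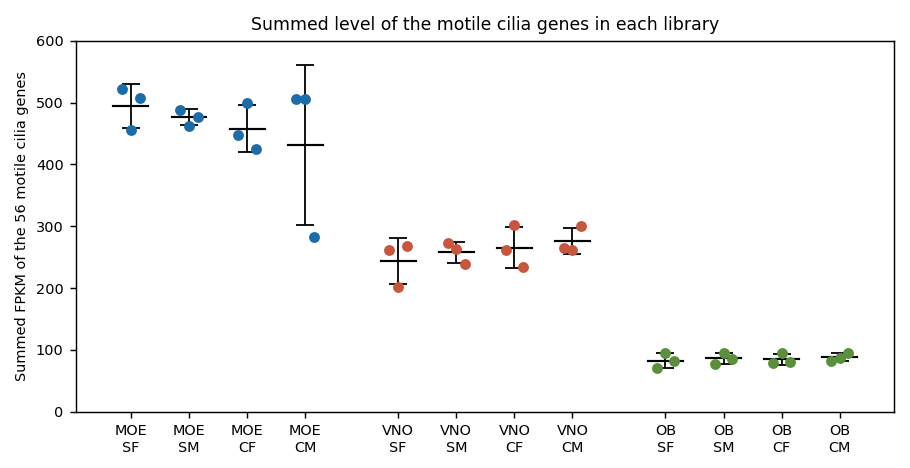
Summed FPKM of the 56 motile cilia genes (y axis) in each library by tissue and group (x axis), where points are libraries, lines are group means and bars are ± 1 SD (n = 3). The 12 OB libraries lie between 70.5 and 95.4, and MOE-CM3 at 282 is the lowest MOE library.

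The families were not shifted alike. The Cfap genes summed to 308 FPKM in MOE, against 160 in VNO and 71.0 in OB, the Rsph genes to 69.2, 39.1 and 6.59, and the Drc genes to 50.5, 20.0 and 2.97. The Dnai genes summed to 7.50 FPKM in MOE and 7.03 in VNO, values that differed by less than the SD between libraries, and to 0.368 in OB. The Dnah genes alone were higher in VNO (34.9 FPKM ± 4.67) than in MOE (29.4 FPKM ± 5.78), with overlapping ranges, and summed to 4.51 in OB. A few genes made up much of the sum in each tissue. In MOE Cfap36, Cfap69, Cfap20, Rsph9 and Drc3 together took 42.9% of it, in VNO Cfap300, Rsph9, Cfap20, Cfap36 and Dnah5 took 39.4%, and in OB Cfap36 alone took 32.8% and Cfap20 a further 15.9%.

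**Figure D2:**
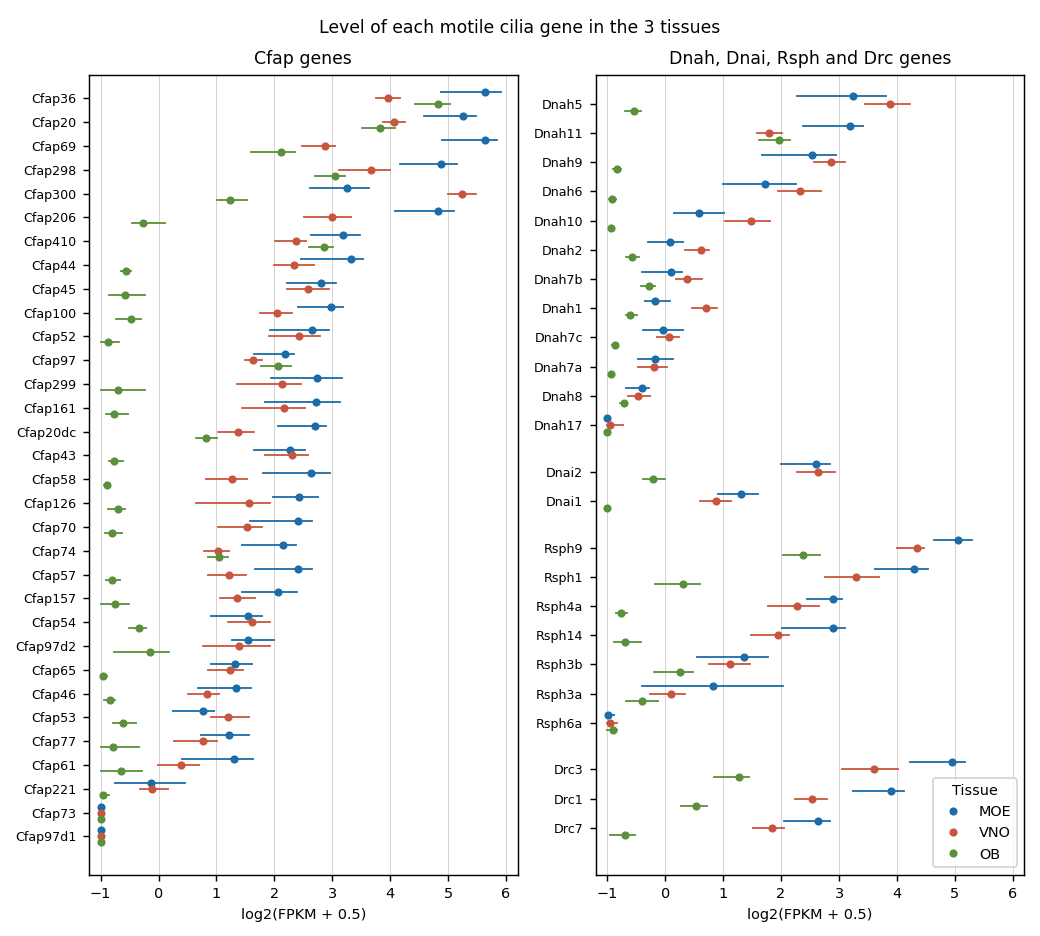
Level of each of the 56 genes on the log2(FPKM + 0.5) scale (x axis), with the mean of 12 libraries as a point and the lowest to highest library as a line, for MOE, VNO and OB. Most genes lie near the lower end of the scale in OB, with Cfap36, Cfap20, Cfap410, Cfap97 and Dnah11 among the exceptions.

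Differences between tissues were tested with limma on log2(FPKM + 0.5) over all 36 libraries, with p-values adjusted by the Benjamini-Hochberg method over the 22091 genes tested and called at an adjusted p under 0.05. Of the 56 genes 54 were tested, and the remaining 2, Cfap73 and Cfap97d1, were listed at 0 in all 36 libraries. Cfap73 overlaps Ddx54, which was at means of 4.52, 6.37 and 6.11 FPKM in MOE, VNO and OB. How reads were divided between them bears on the zeros of Cfap73 and was not tested. Between MOE and VNO, 34 of 54 were higher in MOE, beside 38.4% of all genes, and 9 were lower in MOE, beside 32.1% of all genes. With a log2 difference of at least 1 required as well, 13 were higher in MOE (9.52% of all genes) and 1 was lower (7.3% of all genes). The median difference of the 54 genes was 0.55 on the log2 scale, against 0.01 for all genes tested. Over genes with a mean of at least 0.5 FPKM, the median MOE minus VNO difference of all genes was 0.15 as deposited and -0.05 after upper quartile scaling, and that of the motile cilia genes was 0.63 and 0.42.

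Among the motors the direction was mostly the reverse of the other families. Of the 12 Dnah genes 1 was higher in MOE, 7 were lower in MOE and 4 were not called. Of the 42 other genes tested 33 were higher, 2 were lower and 7 were not called. Beside these counts, 38.4% of all genes were called higher in MOE than VNO and 32.1% lower. Dnah5, the outer arm heavy chain whose loss abolishes most ciliary beating, had a level of 4.34 FPKM in its lowest MOE library, 9.01 at the median and 13.4 in its highest. In VNO its level was 10.4, 13.8 and 18.3 FPKM, and in OB 0.120, 0.202 and 0.246. The MOE and VNO ranges overlapped, and the difference of MOE from VNO was -0.66 ± 0.10 (SE) on the log2 scale (limma, adjusted p = 9.06e-07). Dnah9, the heavy chain that pairs with Dnah5 along the outer part of the cilium, was at 2.70, 5.37 and 7.25 FPKM in MOE and 5.43, 6.75 and 8.10 in VNO. Its difference of MOE from VNO was -0.35 ± 0.09 (SE) on the log2 scale (limma, adjusted p = 0.000645), and it was near the lower limit in OB at 0.0380 to 0.0865 FPKM. Dnah11, the other outer arm chain of the airway, which occupies the base of the cilium, went the other way. Its level was 4.70, 8.62 and 10.2 FPKM in MOE (lowest, median, highest), against 2.51, 2.89 and 3.55 in VNO, and the bulb values were 2.56, 3.42 and 3.96. No MOE library overlapped VNO or OB, and MOE was higher than VNO by 1.39 ± 0.08 (SE) on the log2 scale (limma, adjusted p = 1.42e-14). Its VNO minus OB difference of -0.16 did not pass the test (limma, adjusted p = 0.0847) and was 0.16 after upper quartile scaling (adjusted p = 0.0142), whereas Dnah5 and Dnah9 were at most 0.246 and 0.0865 FPKM in the bulb. Dnah11 overlaps Cdca7l, which was listed at 0 in every MOE and VNO library and at 0 to 2.52 FPKM in OB. The kit kept strand, but the counting options used are not given in the sources used here.

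The inner arm heavy chains were lower in MOE than VNO in 5 of 7 cases (32.1% of all genes) and higher in none (38.4%). Dnah10 was at 0.614, 0.959 and 1.51 FPKM in MOE (lowest, median, highest) and at 1.55, 2.31 and 3.02 in VNO, without overlap. Dnah1 was at 0.281, 0.382 and 0.561 FPKM in MOE and at 0.875, 1.11 and 1.36 in VNO, again without overlap. On the log2 scale, which understates the change of such low genes, MOE differed from VNO by -0.90 ± 0.08 (SE) for Dnah10 and by -0.88 ± 0.05 for Dnah1. Dnah6 (-0.62), Dnah2 (-0.54) and Dnah7b (-0.29) were also called lower in MOE. Dnah7a and Dnah7c were not called, and the 3 Dnah7 copies are near-identical, so reads can be split between them and the value of each is uncertain. Dnah8 and Dnah17 complete the outer arm group and were not called. Dnah8 had means of 0.259 FPKM in MOE and 0.221 in VNO. Dnah17 was listed at 0 in 34 libraries, and it overlaps Pgs1, which was at means of 5.97 FPKM in MOE and 7.21 in VNO, so how reads were divided between them bears on its zeros and was not tested.

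Transcript length moved with this pattern. Dynein heavy chains are among the longest transcripts of the mouse, and the 12 listed here have a longest annotated transcript of 12207 to 15637 bases. Among all 327 genes with at least 10000 bases and a mean of at least 0.5 FPKM, the median MOE minus VNO difference was -0.19 on the log2 scale and 61.8% were lower in MOE, against a median of 0.39 for the 4299 genes under 2000 bases. This filter kept 8 of the 12 Dnah genes. It left out Dnah7a, Dnah7c, Dnah8 and Dnah17, none of which was called. Dnah1, Dnah2 and Dnah7b passed it through their VNO level, with means of 0.387, 0.553 and 0.569 FPKM in MOE, against 1.13, 1.03 and 0.802 in VNO. The 8 are therefore not a measure of the whole family. Over all 12 the median MOE minus VNO difference was -0.32. After the length trend was removed within each library, on genes with a mean of at least 0.5 FPKM, 26 of 48 members were called higher and 12 lower in MOE, beside 40.9% and 44.1% of all 14573 genes in that fit. Dnah10 (-0.73), Dnah1 (-0.71), Dnah5 (-0.49), Dnah6 (-0.45), Dnah2 (-0.37) and Dnah9 (-0.18) remained called lower, Dnah11 remained higher (1.56), and Dnah7b (-0.12) was no longer called. Dnah1, Dnah2 and Dnah7b were in this fit only through their VNO level. Conversely Rsph3a, among those called higher, was in it only through its MOE level (means of 1.27 FPKM in MOE and 0.569 in VNO). The part of transcript length in the heavy chain result was not tested beyond this correction, which was chosen after the data were seen. In the study's sample list every VNO pool had a lower RNA integrity number than any MOE pool, and every OB pool a higher one. The same barcodes were used again for each tissue. Tissue therefore cannot be told apart from RNA integrity or from the way libraries were grouped for sequencing, and their part was not tested. Hydin, a very large protein of the central apparatus outside the set, was also lower in MOE (median 0.943 FPKM) than in VNO (1.81), by -0.61 on the log2 scale.

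**Figure D3:**
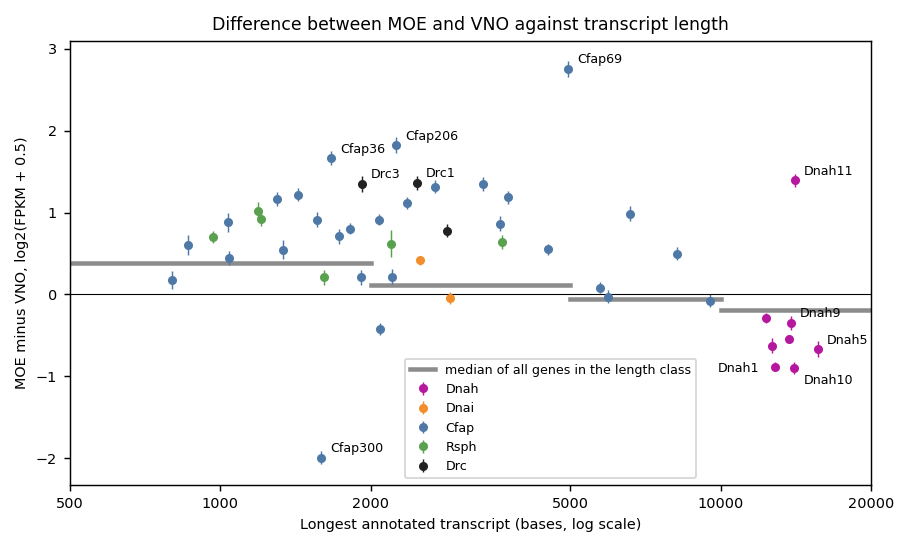
MOE minus VNO difference on the log2(FPKM + 0.5) scale with its standard error (y axis) against the longest annotated transcript in bases (x axis, log scale) for members with a mean of at least 0.5 FPKM; grey lines are medians of all genes in 4 length classes. Of the longest genes Dnah11 lies above 0 at 1.39 and the other 7 heavy chains that passed the filter lie below it. Dnah1, Dnah2 and Dnah7b passed the filter only through their VNO level. Dnah7a, Dnah7c, Dnah8 and Dnah17 did not pass it, are not shown and were not called.

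The intermediate chains Dnai1 and Dnai2, subunits of the outer arm, had deposited levels in the nasal tissues with overlapping ranges. Dnai2 was at 3.49, 5.58 and 6.68 FPKM in MOE and at 4.35, 5.61 and 7.12 in VNO, and the difference did not pass the test (-0.04 ± 0.07, limma, adjusted p = 0.648), but after the length correction it was called lower in MOE (-0.22, adjusted p = 0.000269). Dnai1 was at 1.39 to 2.53 FPKM in MOE and at 1.01 to 1.70 in VNO, higher in MOE by 0.42 on the log2 scale. It was listed at 0 in all 12 OB libraries, where Enho, a gene that overlaps it, was at 34.7 to 52.4 FPKM.

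All 3 Drc genes were higher in MOE than VNO, beside 38.4% of all genes. Drc3, a leucine-rich repeat subunit of the regulatory complex, was at 18.2, 32.2 and 35.5 FPKM in MOE (lowest, median, highest), against 7.74, 11.6 and 15.6 in VNO, and in OB it had a median of 1.98 and a highest of 2.22. Drc1, a subunit needed for the complex to assemble, was at 8.92 to 16.9 FPKM in MOE, had a median of 5.39 and a highest of 6.39 in VNO, and lay at 0.704 to 1.16 in OB. Neither gene overlapped between any of the tissues, and MOE exceeded VNO by 1.35 ± 0.10 (SE) for Drc3 and 1.36 ± 0.09 for Drc1 on the log2 scale. Drc7 had means of 5.71, 3.10 and 0.120 FPKM in MOE, VNO and OB.

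Of the 7 Rsph genes 6 were higher in MOE than VNO (38.4% of all genes) and none was lower (32.1%). However, Rsph3b turned sign after upper quartile scaling (-0.00520) and Rsph9 and Rsph3b turned sign after the length correction (-0.074 and -0.19). Rsph9, a spoke head protein, was the most abundant, at 24.4, 33.3 and 38.7 FPKM in MOE, against 15.5, 20.5 and 21.7 in VNO, and at 3.59, 4.85 and 5.85 in the bulb. Its ranges did not overlap, and MOE exceeded VNO by 0.70 ± 0.07 (SE) on the log2 scale as deposited (limma, adjusted p = 7.86e-10), a difference that did not pass the test after the length correction (adjusted p = 0.185). Rsph1 (means 19.2, 9.30 and 0.730 FPKM in MOE, VNO and OB) and Rsph4a (6.94, 4.31 and 0.0915), also of the spoke head, were ordered in the same way. Rsph3a and Rsph3b are near-identical copies, so the values of each are uncertain; Rsph3a varied from 0.256 to 3.57 FPKM between the MOE-SF pools alone. Rsph6a, known as a sperm spoke gene, was at or below 0.0631 FPKM in every library, with an effective number of at most 2.11 fragments in any library, under the floor of 3, so its calls between tissues carry little weight.

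The Cfap genes held both extremes. Of 30 tested, 23 were higher in MOE than VNO (38.4% of all genes), 2 were lower (32.1%) and 5 were not called. After the length correction 17 of 29 were called higher (40.9% of all genes in that fit) and 4 lower (44.1%). The 4 were Cfap300, Cfap53, Cfap77 and Cfap97d2, of which Cfap77 had been called higher without the correction. Cfap69, a protein of motile cilia and sperm that is also found in olfactory cilia, had the largest MOE minus VNO difference of the 54 genes. It was at 29.1, 51.4 and 56.6 FPKM in MOE (lowest, median, highest), against 5.04, 7.02 and 7.73 in VNO, and the bulb values were 2.54, 3.86 and 4.63. MOE was higher than VNO by 2.75 ± 0.10 (SE) on the log2 scale (limma, adjusted p = 3.60e-20), with MOE-CM3 as the lowest MOE library and still above all of VNO. Cfap206, which anchors a radial spoke, followed with 16.4, 28.9 and 33.9 FPKM in MOE, against 5.22, 7.47 and 9.55 in VNO and only 0.231, 0.326 and 0.576 in the bulb, a difference of 1.82 ± 0.10 between the nasal tissues. For Cfap36 the difference was 1.66 ± 0.09.

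Cfap300 was the opposite case. This cytoplasmic protein takes part in dynein arm preassembly, and in mm9 its gene lies at chr9:8021672-8042875. Its level was 5.63, 9.15 and 11.9 FPKM in MOE (lowest, median, highest), against 31.5, 37.3 and 44.0 in VNO, and the bulb values were 1.52, 1.82 and 2.37. The 3 tissues did not overlap, and MOE was lower than VNO with a log2 difference of -1.99 ± 0.08 (SE, limma, adjusted p = 3.11e-18). It was the most abundant motile cilia gene of the VNO and ranked 11 of 56 in MOE, its longest annotated transcript had 1592 bases, and the difference was -2.39 after the length correction. Cfap298, the other Cfap gene of cytoplasmic preassembly, went in the usual direction with means of 29.0 FPKM in MOE, against 12.2 in VNO and 7.74 in OB. Cfap53, a protein inside the doublet microtubules, was the other Cfap gene lower in MOE (1.21 against 1.79 FPKM). The other 5 of the 6 listed genes of that location (Cfap20, Cfap45, Cfap52, Cfap126 and Cfap161) were higher in MOE, beside 38.4% of all genes. After the length correction Cfap20 alone of these 5 was called higher, with Cfap126 (0.10), Cfap161 (0.12), Cfap45 (-0.09) and Cfap52 (-0.08) not called. Of the genes that tether or modify inner arms 3 of 4 were higher in MOE (Cfap44, Cfap57 and Cfap100), beside 38.4% of all genes, and Cfap43 was not called.

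**Figure D4:**
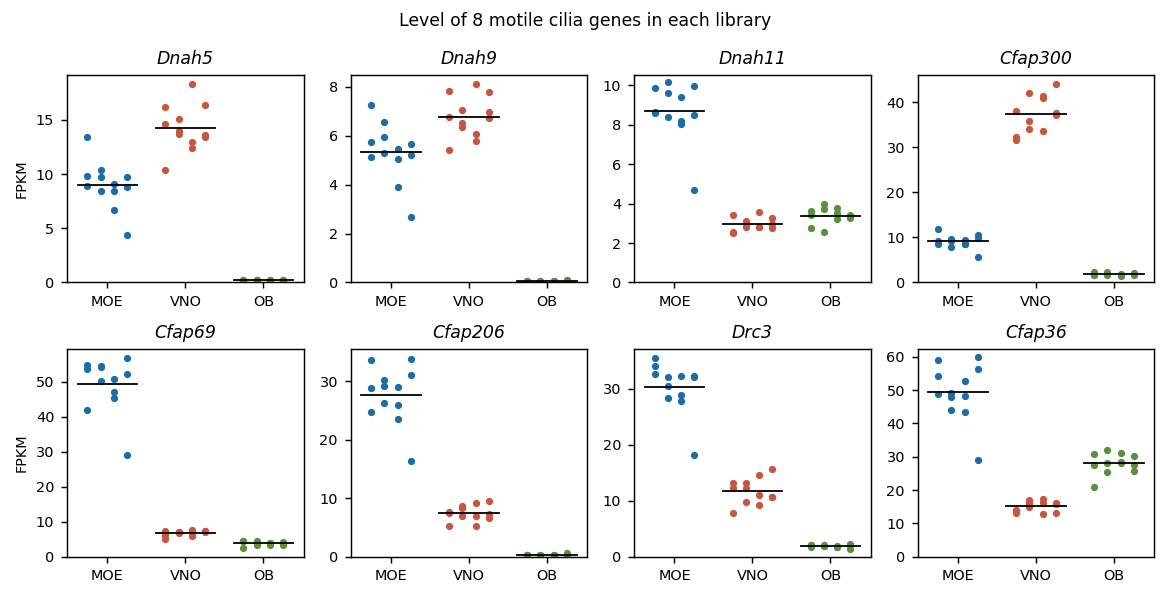
FPKM (y axis, from 0) of 8 genes in each of the 36 libraries, by tissue (x axis), where points are libraries, set side by side by group (SF, SM, CF, CM), and lines are tissue means. Dnah5, Dnah9 and Cfap300 have their highest mean in VNO and the other 5 genes in MOE, and Cfap36 is higher in OB than in VNO.

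Against the bulb the set was raised in both nasal tissues. Between MOE and OB, 51 of 54 genes were higher in MOE (40.3% of all genes) and 1 was lower (32.4% of all genes), the latter being Rsph6a. With a log2 difference of at least 1, 42 were higher (15.9% of all genes) and 0 lower (12.3%). Between VNO and OB, 47 were higher in VNO (35.4% of all genes) and 4 lower (36.5%), and 36 were higher by at least 1 (14.6%) and 0 lower (13.3%). The median difference was 2.22 for MOE minus OB and 1.97 for VNO minus OB. Those with a mean of at least 0.5 FPKM numbered 47 of 56 for MOE, 49 for VNO and 15 for OB, beside 55.8%, 56.2% and 51.9% of all listed genes. The genes that stood out in the bulb were Cfap36 (21.1, 28.1 and 32.2 FPKM), Cfap20 (10.9, 13.7 and 16.4), Cfap298, Cfap410, Rsph9, Cfap69, Cfap97 and Dnah11. Cfap36, Cfap410 and Cfap97 were higher in OB than in VNO, by log2 differences of VNO minus OB of -0.87, -0.48 and -0.43.

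Other cilia genes placed these values. FOXJ1 and RFX3 are transcription factors of ciliated cells; Foxj1 had means of 24.2, 15.1 and 1.21 FPKM in MOE, VNO and OB and Rfx3 of 13.9, 5.51 and 3.68. For the counts of this paragraph, 38.4% of all genes were called higher in MOE than VNO and 32.1% lower. Of 10 regulators of multiciliated cells 3 were higher in MOE than VNO and 5 lower, with Trp73 at 0.260 against 1.32 FPKM and Gmnc at 0.120 against 0.622. The 8 genes of dynein docking and of the ruler that spaces the arms were all called higher in MOE, Ccdc39 (18.4 against 5.47 FPKM) and Ccdc40 (15.2 against 3.75) among them. Intraflagellar transport and BBSome genes, which immotile cilia also need, were higher in MOE than VNO in 24 of 25 cases. Against OB 12 of the 25 were higher and 10 lower in VNO, not far from the 35.4% and 36.5% of all genes. Markers of ciliated cells outside the set, among them Foxj1, Hydin, Ccdc39 and Ccdc40 of the lists just given, were higher in MOE in 8 of 14 cases and lower in 3, with a summed level of 197 to 369 FPKM in MOE, against 148 to 246 in VNO and 9.49 to 14.4 in OB. Olfactory sensory neuron markers were higher in MOE in 7 of 7 cases. Airway secretory markers summed to 3540 to 6622 FPKM in MOE, against 3425 to 5816 in VNO and 0.0332 to 6.84 in OB, with Scgb1a1 listed at 0 in MOE and OB. These sums hold members that went opposite ways, since Bpifa1 was at a mean of 4748 FPKM in MOE against 1384 in VNO, but Ltf at 187 against 1424, Reg3g at 533 against 1466 and Bpifb1 at 6.06 against 292. The part of each cell type in the differences above was not tested.

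Sex and housing were compared within a tissue on genes with a mean of at least 0.5 FPKM over its 12 libraries, which left 47 motile cilia genes for MOE, 49 for VNO and 15 for OB. With limma, 0 of these were called in any of the 15 comparisons (SF with SM, CF with CM, SF with CF, SM with CM and the interaction of sex and housing, in 3 tissues). Of all genes, the share called in MOE was 0.102% for SF with SM, 0.0436% for CF with CM, 0.0509% for SF with CF, 0.0654% for SM with CM and 0.0364% for the interaction. In the same order it was 0.0722%, 0.0433%, 0%, 0% and 0% for VNO, and 0.0391%, 0.0469%, 0.00782%, 0% and 0.00782% for OB. At an unadjusted p under 0.05 the MOE counts were 3, 0, 0, 1 and 1 of 47, beside 4.16%, 1.75%, 2.04%, 6.94% and 4.59% of all genes. The VNO counts were 1, 1, 1, 2 and 2 of 49, beside 8.81%, 3.94%, 11%, 2.33% and 5.25%, and those of OB were 0, 0, 0, 1 and 0 of 15, beside 4.57%, 5.71%, 2.81%, 3.39% and 4.14%. With library weights in the same model, 7, 10 and 10 of the 47 MOE genes passed for SF with SM, SF with CF and the interaction, beside 13.2%, 16.1% and 17.6% of all genes. Without weights the smallest adjusted p of a motile cilia gene was 0.699 in MOE (SM with CM), 0.428 in VNO (SF with CF) and 0.869 in OB (CF with CM).

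The summed level of the 3 pools was 455 to 521 FPKM in MOE-SF (mean 495), 462 to 488 in MOE-SM (476), 425 to 500 in MOE-CF (458) and 282 to 506 in MOE-CM (432). In VNO the means were 244, 258, 266 and 276 FPKM and in OB 82.5, 86.2, 84.6 and 88.3 FPKM, in the order SF, SM, CF and CM, with SDs of at most 37.0 and 12.5. The groups of a tissue overlapped in every pair. The precision was set by the median standard error, 0.21 on the log2 scale for MOE and 0.14 for both VNO and OB, and the 95% interval of SF minus SM lay within ± 1 for 43 of 47 MOE genes, 49 of 49 VNO genes and 15 of 15 OB genes.

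In MOE the smallest unadjusted p between SF and SM was that of Rsph3b, at 1.88, 0.970 and 1.77 FPKM in the SF pools and 2.77, 2.32 and 2.93 in the SM pools. Every SF pool lay below every SM pool, with a log2 difference of -0.66 (95% interval -1.09 to -0.24; adjusted p = 0.709 with limma). In the CF pools it was at 2.34, 2.26 and 1.92 FPKM and in the CM pools at 2.09, 2.07 and 1.32, and the interaction had an adjusted p of 0.929. Cfap299 was at 7.02, 8.47 and 7.54 FPKM in SF and 4.37, 4.80 and 5.82 in SM, without overlap (0.58, 95% interval 0.11 to 1.05, limma, adjusted p = 1). In VNO, Cfap61, a subunit of the spoke base, was at 0.967, 0.682 and 0.739 FPKM in SF and 0.493, 0.554 and 0.529 in SM (0.33, 95% interval 0.07 to 0.59, limma, adjusted p = 0.520). Its CF pools were at 0.820, 0.955 and 1.13 FPKM and its CM pools at 0.916, 1.02 and 0.903, all above the SM pools, and SM minus CM was -0.58 (limma, adjusted p = 1). In OB, Cfap20dc was at 1.06, 1.25 and 1.07 FPKM in CF and 1.28, 1.51 and 1.40 in CM (-0.22, 95% interval -0.46 to 0.02, limma, adjusted p = 0.869).

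**Figure D5:**
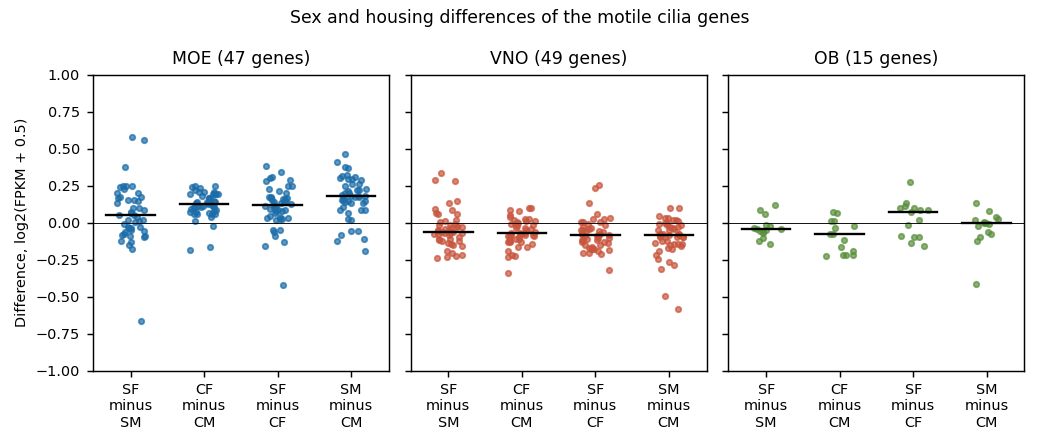
Difference of each tested motile cilia gene (points) between groups on the log2(FPKM + 0.5) scale (y axis) for 4 comparisons (x axis) in MOE, VNO and OB, with horizontal spread for legibility and lines at the medians. The lowest point in MOE is Rsph3b at -0.66, the lowest in VNO is Cfap61 at -0.58 between SM and CM, and none of the points shown passed the test.

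In MOE-CM3 43 of the 47 tested genes were below the lowest of the other 11 MOE libraries, beside 75.3% of all genes, and the exceptions were Cfap77, Cfap126, Rsph3a and Rsph3b. All 47 were below the tissue median there, by a median of -0.66 on the log2 scale. Olfactory sensory neuron markers (-0.67), ciliated cell markers (-0.74) and sustentacular markers (-0.66) had similar medians in that library, and their part in its low level was not tested. By the study's alignment statistics, MOE-CM3 also had the lowest share of aligned reads and of concordant pairs and the shortest mean insert of all libraries. Its effective number of fragments was the lowest as well, at 3016520. The part of these in its low level was not tested either. Without it the MOE sum was 482 FPKM ± 30.4 (n = 11). In VNO-SF2, the lowest VNO library at 201 FPKM, 48 of 49 genes were below the tissue median, by a median of -0.33, and ciliated cell markers were at -0.41.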

How the data were processed

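RNA of MOE, VNO and OB was sequenced as 36 ribosome-depleted, paired-end libraries. According to the submitters' processing notes, reads were aligned to mm9 with TopHat2 2.1.0 and quantified with Cufflinks 2.2.1.0, and Cuffdiff was used. The values used here are the FPKM deposited by the authors for each transcript entry, normalised within each library. Entries were given gene symbols by RefSeq accession (99.7%) and FPKM was summed by gene. Dnaic1 and Dnaic2 of the symbol table were read as Dnai1 and Dnai2. The MOE tables list 40150 entries and the others 40008. An effective number of fragments behind an FPKM was estimated by reading its deposited confidence limits as Poisson error. It is well below the sequenced depth, and it says nothing of the spread between pools.

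Tests used limma 3.58.1 in R 4.3.3 (group means, eBayes with a trend) on log2(FPKM + 0.5). Tissue contrasts used 36 libraries without a level filter, and group contrasts 12 libraries of a tissue with a mean FPKM of at least 0.5. Tables and figures were made with Python 3.11.15, pandas 2.3.3 and matplotlib 3.10.9. Transcript lengths came from GENCODE and promoters from RefSeq, both GRCm38. On simulated data the MOE minus VNO fit recovered 98% of genes changed by 1 on the log2 scale (14627 genes), and the MOE SF minus SM fit 65.5% at 1 and 98.5% at 2 (13755 genes).

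Named genes were the 3 most abundant of each family, those with the largest tissue differences, those with the smallest p in sex, housing and interaction contrasts, and a list of known cilia genes. Further genes in the text were named after their values were seen. The members, gene lists and tests were chosen with earlier results of these data known. Alternatives were other pseudocounts, scalings, filters and library sets, library weights, a replicate block and a length correction.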

Additional observations from a re-analysis of the deposited data

How the results depend on the processing

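Of the tissue counts, lower calls of VNO against OB were 7 after quantile normalization (4 without it). Lower calls of MOE against OB were 0, not 1, with a mean FPKM of at least 0.5 required, and 0 with the transcript length correction, since both leave out Rsph6a. With library weights, 7 of 47 genes were called in MOE between SF and SM (13.2% of all genes), 10 between SF and CF (16.1%) and 10 for the interaction (17.6%), and in OB 1 of 15 was called between CF and CM (5.56%) and 1 between SM and CM (24.6%), where 0 were called without weights; the cause was not tested. The summed levels that moved by more than their SD between libraries were 302 FPKM in VNO and 76.1 in OB after upper quartile scaling, and 57.4 in OB without Cfap36. The MOE sum did not move by more than its SD and is not given under that scaling. The scaled VNO sum should therefore not be set against the unscaled MOE sum. Leaving out each library in turn gave 31 to 35 genes higher and 9 to 10 lower for MOE against VNO, 51 to 52 and 1 for MOE against OB, 47 to 48 and 3 to 5 for VNO against OB, and 0 in every sex and housing comparison.

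With the length correction 5 of the members called between MOE and VNO changed sign, namely Cfap45 (-0.09), Cfap52 (-0.08), Cfap77 (-0.33), Rsph3b (-0.19) and Rsph9 (-0.074), of which Cfap77 (adjusted p = 0.000928) and Rsph3b (adjusted p = 0.0119) were then called lower in MOE. The other sign changes were followed for the genes of the naming rule alone. With upper quartile scaling the sign turned for Dnah7a (-0.095) and Rsph3b (-0.00520) of MOE against VNO and Dnah11 of VNO against OB (0.16), and after quantile normalization Dnah7b of MOE against OB (-0.0109). With library weights Dnai2 of MOE against VNO was 0.024 and Cfap298 of CF against CM in MOE was -0.017. Leaving out 1 library at a time gave -0.00580 to 0.051 for Dnah7a and -0.076 to 0.014 for Dnai2, both of MOE against VNO, and -0.24 to 0.029 for Cfap36 of SF against SM in OB. The signs turned without MOE-SF replicate 2 or VNO-SF replicate 2 for Dnah7a, without MOE-CM replicate 3 for Dnai2 and without OB-SF replicate 1 for Cfap36.

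A replicate number is shared between groups but nothing says that it marks a common pool. Correlations of same-numbered libraries had medians of 0.0215 for MOE, 0.082 for VNO and -0.000146 for OB. Those of differently numbered libraries had medians of -0.00823, -0.0465 and 0.00308. In VNO 8 of 18 same-numbered pairs exceeded 0.1, against 4 of 36 others. Across tissues, within a group, the medians were 0.00939 and 0.00444. Of 108 best matches, each to 1 of 3 libraries of another group, 39.8% had the same number. For the tissue comparisons the block joined libraries of different tissues that had the same group and number. With the replicate block the counts were 34 and 9, 51 and 1, and 47 and 3 for the tissue comparisons in the order above, and 0 in every sex and housing comparison.

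In the bulb the low levels left the motile cilia genes together an effective 2236 to 4338 fragments per library.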
